A study of Rattus norvegicus with 20 samples.

Results

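The mitochondrial carrier family Slc25 was described here by its RNA levels in red muscle of the rat. Its members were all genes whose row in the value table carried a single symbol made of Slc25a and a number, with 1 such symbol left out by the rule that chose them. That gave 35 of the 14557 genes tested, each with 1 row, and all 35 symbols are current in RefSeq's rat gene table (assembly GRCr8). Another 13 protein-coding genes with such symbols in that table, among them the phosphate carrier Slc25a3 and the aspartate/glutamate carrier Slc25a13, had no row of their own under the annotation used and were not analysed here. The tissue was the red part of the tibialis anterior, an oxidative region of a shin muscle, from male rats described in the labels as ZDF. In the obese ZDF rat, obesity and diabetes arise from a defective leptin receptor, and lean rats serve as controls. The 4 groups were rosiglitazone, resveratrol, obese and lean control, with 5 arrays each, labelled as biological replicates. The strain label reads Zucker. Rosiglitazone is an agonist of PPARgamma, the nuclear receptor of fat cell formation, and resveratrol is a plant polyphenol. Lean rats ate chow and obese rats a stock diet for 6 weeks, and the labels give neither age, nor dose or duration of either drug, nor the genotype of the treated rats. The treated groups were therefore set against the obese group on the basis of the study's description of diabetic rats given an intervention.

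Carriers of this family are small proteins of the inner mitochondrial membrane, built from a repeated unit, that exchange nucleotides, keto acids, amino acids, cofactors and metal ions between the matrix and the cytosol. In oxidative muscle, the ADP/ATP carriers pass ATP to the contractile apparatus, and the oxoglutarate and aspartate/glutamate carriers form the membrane part of the malate-aspartate shuttle, which brings reducing equivalents from glycolysis into the matrix. The citrate carrier supplies cytosolic acetyl units for the synthesis of fatty acids.

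All values are log2 signals as deposited, so a difference of 1 is a doubling. The median of an array lay between 2.46 and 2.55, arrays of a group correlated at 0.964 to 0.974 over all rows, and 5 of 7 listed skeletal muscle genes were measured and averaged between 8.54 and 11.24. Of the 35 members, 7 averaged at or below the highest array median (Slc25a21, Slc25a31, Slc25a41, Slc25a43, Slc25a47, Slc25a52 and Slc25a54). Signal above background was not shown for those 7, so their differences are of uncertain size. The spread within groups was between 0.07 (Slc25a4) and 0.40 (Slc25a37) for the members, with a median residual SD of 0.23 against 0.222 for all genes. RefSeq's table lists 9 pseudogenes named for Slc25a5 and 8 named for Slc25a39, and whether the probes of these rows tell them apart was not tested.

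No member passed the test in any comparison, and Slc25a1, Slc25a11, Slc25a12 and Slc25a35 did so under some of the other settings tried. Groups were compared with limma over all 20 arrays, with Benjamini-Hochberg adjustment over the 14557 genes, and the threshold for a call was an adjusted p of 0.05. In a moderated F test of any difference among the 4 groups, 0 of 35 members were called, against 2.71% of all genes, and 7 members had an unadjusted p under 0.05, against 16.1% of all genes. Those were Slc25a35, Slc25a1, Slc25a15, Slc25a5, Slc25a33, Slc25a11 and Slc25a28, and the smallest adjusted p of a member, that of Slc25a35, was 0.161. The difference between the highest and the lowest group mean of a member ran from 0.08 (Slc25a37) to 0.65 (Slc25a1).

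**Figure D1:**
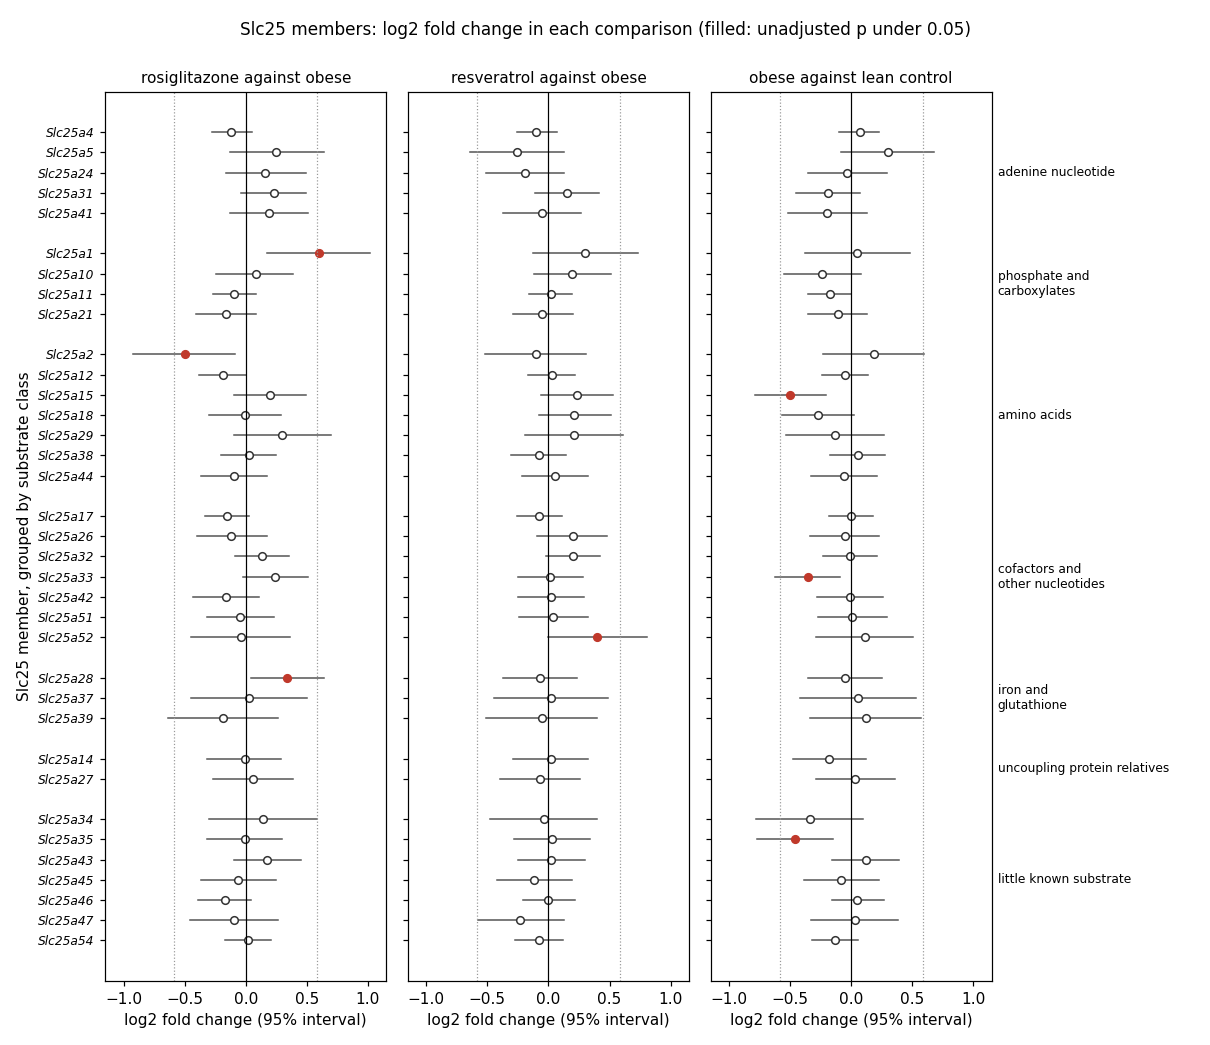
Log2 fold change of each of the 35 members (points) with its 95% interval (lines) in 3 comparisons, in rows grouped by transported substrate. Filled points have an unadjusted p under 0.05, dotted lines mark a 1.5-fold difference, and most intervals lie between them: 29, 31 and 29 of 35 from left to right.

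The effect of rosiglitazone was read against the obese group. Among the 35 members, the citrate carrier Slc25a1 had the highest log2 fold change and the ornithine carrier Slc25a2 the lowest, but neither was called. Over the members, 0 of 35 were called, against 1.94% of all genes, 3 (8.57%) had an unadjusted p under 0.05, against 13.6%, and 0 had groups that did not overlap, against 3.59%. The median log2 fold change was -0.01 over the members and -0.005 over all genes. The 95% interval, without adjustment for the number of genes, lay within a 1.5-fold difference for 29 members (82.9%), against 81.4% of all genes.

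Slc25a1 exports citrate from mitochondria for the synthesis of fatty acids and sterols. It had 3.29, 2.45, 3.37, 3.19 and 3.57 on the rosiglitazone arrays, 3.27, 3.24, 2.74, 2.14 and 3.0 on the resveratrol arrays, 2.46, 2.41, 2.80, 2.67 and 2.55 on the obese arrays and 2.35, 2.16, 2.41, 2.77 and 2.95 on the lean control arrays. All rosiglitazone arrays but replicate 2 lay above every obese and every lean control array, and the resveratrol arrays spread over most of the range. The log2 fold change of rosiglitazone against obese was +0.60, or 1.51-fold (SE 0.21, 95% interval 0.17 to 1.02, adjusted p = 0.167 from limma). Without rosiglitazone replicate 2 it was +0.78 and was called (adjusted p = 0.0366), and over the 19 alternatives the adjusted p ran from 0.0366 to 0.322. Against resveratrol the difference of rosiglitazone was +0.30 with an interval of -0.13 to 0.72.

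Of 5 adipocyte markers (Adipoq, Fabp4, Cidec, Plin1 and Lep), 5 were called higher with rosiglitazone than in obese muscle, and their mean level was 4.74 to 5.60 on the rosiglitazone arrays against 3.89 to 4.12 on the obese arrays. Replicate 2 of rosiglitazone, at 5.06, was inside the range of its group there. The resveratrol arrays had 4.08 to 4.40 and the lean control arrays 3.44 to 4.13. Of 5 listed endothelial markers, 3 were measured. Vwf (+0.93) and Tek (+0.78) were called higher with rosiglitazone than in obese muscle, and Cdh5 (+0.05) was not. The mean level of the 3 was 5.82 to 6.16 on the rosiglitazone arrays against 5.24 to 5.58 on the obese arrays. Fibroblast markers were called lower in 1 of 5 (Col3a1), macrophage markers in 0 of 5, and the 4 Schwann cell markers had no row. In such a piece of tissue, fewer cells of a type and less RNA per cell cannot be told apart, and the part of fat or vessel cells in the Slc25a1 values was not tested. Genes listed for citrate metabolism and lipogenesis gave no call in any comparison, with 5 of 9 listed measured. Among them the ATP citrate lyase Acly, which splits cytosolic citrate, had a log2 fold change of +0.33 and the malic enzyme Me1, a source of NADPH, of -0.29 for rosiglitazone against obese.

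Slc25a2, an ornithine carrier, had 2.48, 2.90, 2.37, 2.45 and 2.73 on the rosiglitazone arrays against 3.23, 3.70, 3.10, 2.40 and 3.02 on the obese arrays. Obese replicate 4 lay among the rosiglitazone arrays and the other 4 lay above them all. The log2 fold change was -0.50 (SE 0.20, 95% interval -0.92 to -0.09, adjusted p = 0.253). The values of Slc25a2 and of Slc25a1 lay near the array medians, some of them below, so the sizes of these differences are uncertain. Slc25a28, mitoferrin 2, an importer of iron, had 5.69, 5.65, 6.19, 5.61 and 5.51 on the rosiglitazone arrays against 5.37, 5.63, 5.49, 5.20 and 5.26 on the obese arrays. The groups overlapped and rosiglitazone replicate 3 stood apart, and the log2 fold change was +0.34 (SE 0.14, adjusted p = 0.284) with it and +0.23 without it.

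The remaining 3 of the 6 extreme members in this comparison were Slc25a29 (+0.30), a carrier of basic amino acids, Slc25a39 (-0.19), which is linked to mitochondrial glutathione import, and Slc25a12 (-0.19). The value of Slc25a39 was -0.01 without rosiglitazone replicate 2 and -0.33 without replicate 1, -0.30, -0.08 and -0.09 without obese replicates 2, 3 and 5, and that of Slc25a29 was +0.17 without rosiglitazone replicate 1. Slc25a12, the aspartate/glutamate carrier of excitable tissues, had 9.61, 9.52, 9.79, 9.73 and 9.49 on the rosiglitazone arrays, 9.80, 9.93, 9.94, 9.75 and 9.81 on the resveratrol arrays, 9.68, 9.82, 9.70, 9.85 and 10.05 on the obese arrays and 10, 9.80, 9.87, 9.77 and 9.90 on the lean control arrays. The rosiglitazone arrays took the 3 lowest places of the 20 but overlapped with each of the other groups. Its difference against obese had an adjusted p of 0.380 and a 95% interval of -0.38 to 0.00.

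The ADP/ATP carriers were measured with unequal precision. Slc25a4, the isoform of heart and skeletal muscle, had 10.11, 10.17, 10.34, 10.34 and 10.27 on the rosiglitazone arrays, 10.29, 10.24, 10.30, 10.21 and 10.29 on the resveratrol arrays, 10.33, 10.38, 10.39, 10.42 and 10.30 on the obese arrays and 10.28, 10.24, 10.27, 10.44 and 10.25 on the lean control arrays. The lowest of the 20 arrays was 10.11 and the highest 10.44. Its 95% interval was -0.28 to 0.05 for rosiglitazone, -0.26 to 0.07 for resveratrol, each against obese, and -0.10 to 0.23 for obese against lean control, so each bound was well inside a 1.5-fold difference. Slc25a5, the isoform of proliferating and many other cells, had 4.38, 3.94, 3.79, 4.23 and 4.31 on the rosiglitazone arrays, 4.21, 3.05, 3.47, 3.38 and 3.98 on the resveratrol arrays, 3.81, 3.66, 3.65, 4.08 and 4.18 on the obese arrays and 3.52, 3.76, 3.56, 3.19 and 3.84 on the lean control arrays. The groups overlapped, with the resveratrol group the widest. Its log2 fold change was +0.25 for rosiglitazone against obese (adjusted p = 0.598) and +0.30 for obese against lean control (adjusted p = 0.594).

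**Figure D2:**
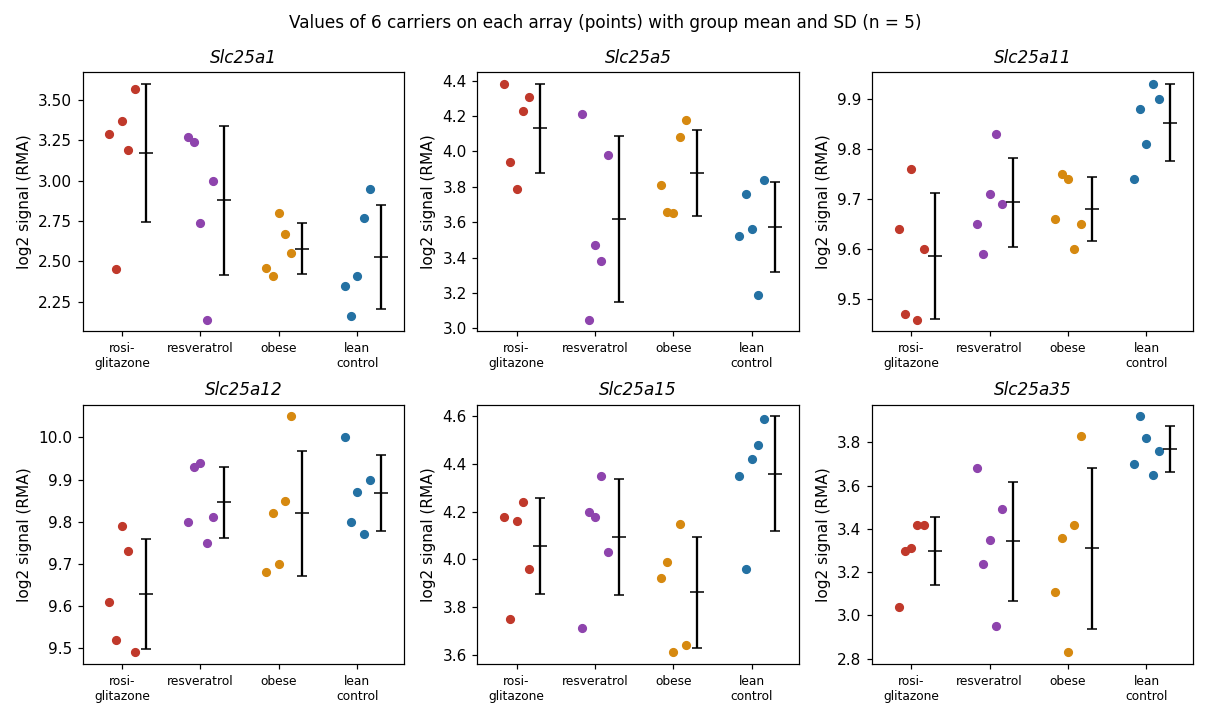
Log2 signal (vertical axis, its own scale in each panel) of 6 carriers on each of the 20 arrays, by group. Points are arrays, and the black bars beside them are the group mean and SD (n = 5). Slc25a35 is between 3.65 and 3.92 on the lean control arrays and between 3.04 and 3.42 on the rosiglitazone arrays, and Slc25a1 shows the single low rosiglitazone array at 2.45.

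Resveratrol was compared with obese in the same way, and no carrier stood out. Over the members, 0 of 35 were called, against 0% of all genes, and 1 (2.86%) had an unadjusted p under 0.05, against 7.41%. The groups of 0 members failed to overlap, against 1.28% of all genes. The median log2 fold change was 0.02, the extremes were -0.26 and +0.40, and the 95% interval lay within a 1.5-fold difference for 31 members (88.6%), against 87.1% of all genes.

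The highest value belonged to Slc25a52, a carrier of NAD+ in man, and rested on 1 array. It had 1.18, 2.62, 1.52, 1.87 and 1.12 on the resveratrol arrays against 1.22, 1.23, 1.12, 1.23 and 1.49 on the obese arrays. Most of these are below the array medians, and the log2 fold change of +0.40 (adjusted p = 0.668) was +0.16 without resveratrol replicate 2. Next came Slc25a1 (+0.30) and Slc25a15 (+0.23), and at the low end Slc25a5 (-0.26), Slc25a47 (-0.23), a carrier known from liver, and the ATP-Mg/phosphate carrier Slc25a24 (-0.19). The adjusted p of each of these was between 0.742 and 0.832. Of these values, only that of Slc25a15 moved by less than 1.5 times when single arrays were left out. Slc25a5 stood at -0.11 without resveratrol replicate 2 and -0.40 without replicate 1, and Slc25a1 at +0.48 without resveratrol replicate 4. Slc25a47 stood at -0.13 without resveratrol replicate 2 and -0.14 without obese replicate 5, and Slc25a24 at -0.11 without resveratrol replicate 1 or obese replicate 3 and -0.31 without resveratrol replicate 4.

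Obese was next compared with lean control. The labels give these groups different diets, so diet cannot be told apart from obesity and diabetes here. The members with the lowest log2 fold changes were Slc25a15, Slc25a35 and Slc25a33. Over the members, 0 of 35 were called, against 0.00687% of all genes (1 gene), 3 (8.57%) had an unadjusted p under 0.05, against 10.8%, and 0 had groups that did not overlap, against 2.36%. The median log2 fold change was -0.05 over the members, 21 of which were negative, and -0.007 over all genes, of which 51.7% were negative. The 95% interval lay within a 1.5-fold difference for 29 members (82.9%), against 84.0% of all genes.

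Slc25a15 carries ornithine across the inner membrane and links the cytosolic and matrix parts of the urea cycle in liver. It had 4.18, 3.75, 4.16, 4.24 and 3.96 on the rosiglitazone arrays, 3.71, 4.20, 4.18, 4.35 and 4.03 on the resveratrol arrays, 3.92, 3.99, 3.61, 4.15 and 3.64 on the obese arrays and 4.35, 3.96, 4.42, 4.48 and 4.59 on the lean control arrays. All lean control arrays but replicate 2 lay above every obese array. The log2 fold change of obese against lean control was -0.50, a factor of 0.706 (SE 0.14, 95% interval -0.79 to -0.21, adjusted p = 0.205), and the adjusted p ran from 0.132 to 0.370 over the 19 alternatives. Against the same lean arrays the rosiglitazone difference was -0.30 and the resveratrol difference -0.27.

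Slc25a35, whose substrate is little known, had 3.04, 3.30, 3.31, 3.42 and 3.42 on the rosiglitazone arrays, 3.68, 3.24, 3.35, 2.95 and 3.49 on the resveratrol arrays, 3.11, 3.36, 2.83, 3.42 and 3.83 on the obese arrays and 3.70, 3.92, 3.82, 3.65 and 3.76 on the lean control arrays. Apart from 1 resveratrol and 1 obese array, every array of the other groups lay below all lean control arrays. The log2 fold change was -0.47 for rosiglitazone (adjusted p = 0.0887), -0.43 for resveratrol (0.388) and -0.46 for obese (0.274), each against lean control with an SE of 0.15. The 3 differences share the lean control arrays and are not independent of each other.

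Slc25a33, a carrier of pyrimidine nucleotides, had 5.56, 5.36, 5.11, 5.22 and 5.13 on the rosiglitazone arrays, 5.26, 5.05, 4.90, 4.78 and 5.22 on the resveratrol arrays, 5.24, 5.28, 4.75, 4.86 and 5.03 on the obese arrays and 5.08, 5.46, 5.42, 5.55 and 5.42 on the lean control arrays. All lean control arrays but replicate 1 lay above every obese and resveratrol array. The log2 fold change was -0.35 for obese (adjusted p = 0.302) and -0.34 for resveratrol (0.426), each against lean control, and +0.24 for rosiglitazone against obese (0.423). At the high end of obese against lean control stood Slc25a5, Slc25a2 (+0.19) and Slc25a39 (+0.12), none with an adjusted p below 0.594. The value of Slc25a2 was +0.03 without obese replicate 2, +0.36 without obese replicate 4 and +0.06 without lean control replicate 4. That of Slc25a39 was 0.00, +0.02 and +0.23 without obese replicates 3, 5 and 2, and +0.03 without lean control replicate 2 or 3, so neither had a size that held over the arrays.

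The direct comparison of rosiglitazone with resveratrol held 1 pair of groups that did not overlap. Over the members, 0 of 35 were called, against 2.04% of all genes, and 6 (17.1%) had an unadjusted p under 0.05, against 13%. In 1 member (2.86%) the groups did not overlap, against 3.67% of all genes. This was Slc25a26, which imports the methyl donor S-adenosylmethionine, with 4.65, 4.72, 4.50, 4.27 and 4.58 on the rosiglitazone arrays against 5.06, 4.73, 4.80, 4.88 and 4.79 on the resveratrol arrays. The highest rosiglitazone and the lowest resveratrol array were 4.72 and 4.73, so the gap was narrow, and the log2 fold change was -0.31 (adjusted p = 0.322).

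The other members with an unadjusted p under 0.05 between the drugs were Slc25a5 (+0.51, adjusted p = 0.193), Slc25a28 (+0.41, 0.177), Slc25a24 (+0.35, 0.324), Slc25a12 (-0.22, 0.308) and Slc25a52 (-0.45, 0.316). Without resveratrol replicate 2 the difference of Slc25a52 was -0.21. Slc25a28 had 5.46, 4.88, 5.14, 5.74 and 5.38 on the resveratrol arrays, of which 1 was above all but the highest rosiglitazone array. Slc25a24 had 3.45, 3.56, 3.06, 3.22 and 3.24 on the rosiglitazone arrays against 2.64, 3.10, 2.88, 3.43 and 2.72 on the resveratrol arrays, which overlapped. Slc25a2, with 2.93, 2.60, 2.87, 3.47 and 3.06 on the resveratrol arrays, gave -0.40 with an adjusted p of 0.408. The 95% interval of the difference between the drugs lay within 1.5-fold for 26 members (74.3%), against 82.8% of all genes.

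Rosiglitazone was last set against lean control, where the members came closest to the threshold. With the treated rats taken as diabetic, drug cannot be told apart from obesity, diabetes or diet when either drug is set against lean control. Over the members, 0 of 35 were called, against 3.5% of all genes, 8 (22.9%) had an unadjusted p under 0.05, against 15.9%, and 1 (2.86%) had groups that did not overlap, Slc25a35, against 5.04%. The median log2 fold change was -0.11 over the members, 23 of which were negative, and -0.003 over all genes, of which 50.5% were negative. Slc25a1 (+0.65), Slc25a11 (-0.27) and Slc25a35 (-0.47) each had an adjusted p of 0.0887, and Slc25a5 (+0.56) had 0.107. The others with an unadjusted p under 0.05 were Slc25a12 (-0.24), Slc25a15 (-0.30), Slc25a21 (-0.28), a carrier of oxodicarboxylates, and Slc25a43 (+0.29), of little known substrate, the last pair at or below the array medians. Slc25a2 (-0.32) and Slc25a28 (+0.29, and +0.18 without rosiglitazone replicate 3) completed the extremes.

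Slc25a11, the oxoglutarate/malate carrier, had 9.64, 9.47, 9.76, 9.46 and 9.60 on the rosiglitazone arrays, 9.65, 9.59, 9.71, 9.83 and 9.69 on the resveratrol arrays, 9.66, 9.75, 9.74, 9.60 and 9.65 on the obese arrays and 9.74, 9.88, 9.81, 9.93 and 9.90 on the lean control arrays. All rosiglitazone arrays but replicate 3 lay below every lean control array. The log2 fold change of rosiglitazone against lean control was -0.27, a factor of 0.831 (SE 0.09, 95% interval -0.44 to -0.09). A 1.5-fold difference was thus outside its interval. Obese and resveratrol stood at -0.17 and -0.16 against lean control (adjusted p = 0.473 and 0.627 from limma), and rosiglitazone at -0.10 against obese (0.694). The calls for rosiglitazone against lean control depended on the processing. With trend and robust moderation of the variances, limma called Slc25a11 (adjusted p = 0.0074) and Slc25a12 (0.0424), and among the brighter genes alone, those with a mean above the median of the array medians, it called Slc25a11 (0.0375). With only the rosiglitazone and lean control arrays in the fit it called Slc25a35 (0.0325), and without rosiglitazone replicate 2 it called Slc25a1 (0.0162).

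Partners of these carriers in the malate-aspartate and glycerol phosphate shuttles, 5 of 7 listed, gave no call in any comparison, with a median of -0.08 for rosiglitazone against lean control. The cytosolic transaminase Got1 stood at 0.00 there, the mitochondrial Got2 at +0.09 and the malate dehydrogenases Mdh1 and Mdh2 at -0.18 and -0.13. Of 10 measured genes used as a gauge of mitochondrial content, 0 were called for rosiglitazone against lean control, 7 were negative and the median was -0.13. Their mean level was 8.55 to 8.67 on the rosiglitazone arrays against 8.66 to 8.74 on the lean control arrays. For rosiglitazone against obese, all 10 were negative with a median of -0.08, 0 were called, and the obese arrays had 8.67 to 8.77. Fibroblast markers, 5 of 5 of which were called lower with rosiglitazone than in lean control, averaged 5.49 to 6.28 on the rosiglitazone arrays against 6.74 to 7.11 on the lean control arrays. Adipocyte markers were called higher in 5 of 5 and endothelial markers in 2 of 3 (Vwf and Tek, but not Cdh5 at -0.07). The 1 erythroid marker with a row, the anion exchanger Slc4a1, was called higher too, by 1.06 on the log2 scale (adjusted p = 0.0126), with 2.86 to 4.83 on the rosiglitazone arrays against 2.51 to 2.86 on the lean control arrays. The part of mitochondrial content and of other cell types in the carrier values was not tested.

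Resveratrol against lean control gave 0 of 35 members called, against 0.0137% of all genes (2 genes), 4 members (11.4%) with an unadjusted p under 0.05, against 8.63%, and 0 whose groups did not overlap, against 1.82%. Besides Slc25a35 and Slc25a33, the 4 were Slc25a52 (+0.52, adjusted p = 0.431) and Slc25a54 (-0.21, adjusted p = 0.536), both below the array medians, and without resveratrol replicate 2 Slc25a52 stood at +0.28. The further extremes were Slc25a34 (-0.38), of little known substrate, Slc25a1 (+0.35) and the folate carrier Slc25a32 (+0.19). Slc25a34 stood at -0.25 without resveratrol replicate 2 and Slc25a1 at +0.54 without replicate 4. The 95% interval lay within 1.5-fold for 30 members (85.7%) here and for 28 (80.0%) in rosiglitazone against lean control, against 85.2% and 81.0% of all genes.

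**Figure D3:**
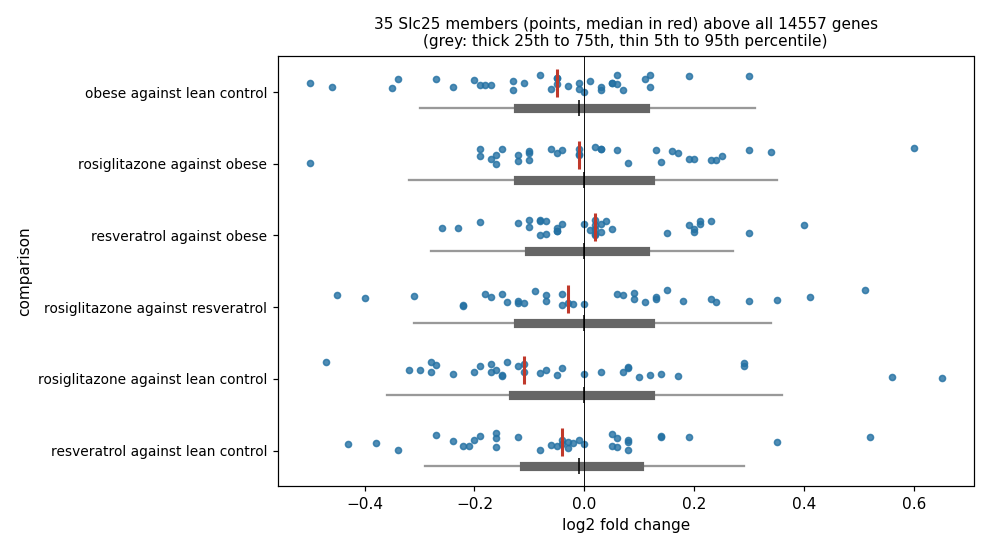
Log2 fold changes (horizontal axis) of the 35 members as blue points with their median as a red bar, above the range of all 14557 genes in grey, in each of 6 comparisons (rows). The thick grey bar spans the 25th to 75th and the thin line the 5th to 95th percentile of all genes, and between 2 and 6 members lie outside the thin line in each comparison.

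By substrate, each class held members of both signs in most comparisons. Of 5 measured adenine nucleotide carriers, 4 had a positive log2 fold change for rosiglitazone against obese and 1 for resveratrol against obese, with medians of 0.19 and -0.10, and 0 were called in either. Besides Slc25a4, Slc25a5 and Slc25a24 they were Slc25a31, an isoform of testis, and the ATP-Mg/phosphate carrier Slc25a41, both below the array medians. Of 4 carriers of carboxylates, the dicarboxylate carrier Slc25a10, which exchanges malate or succinate for phosphate, averaged 3.49 with rosiglitazone, 3.61 with resveratrol, 3.41 in obese and 3.65 in lean control muscle (SD 0.29, 0.22, 0.19 and 0.29, n = 5 each).

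Of 7 amino acid carriers, 5 were negative for obese and 5 for rosiglitazone against lean control, with medians of -0.06 and -0.24. Slc25a44, which imports branched-chain amino acids, averaged 4.30 with rosiglitazone, 4.45 with resveratrol, 4.40 in obese and 4.46 in lean control muscle, a range of 0.15 beside group SDs of 0.13 to 0.24. Slc25a38, a glycine carrier needed for heme synthesis, had group means from 5.18 to 5.29, and the glutamate carrier Slc25a18 from 2.44 to 2.72.

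Of 7 carriers of cofactors and other nucleotides, 6 were positive for resveratrol against obese and 5 negative for rosiglitazone against obese, with medians of 0.04 and -0.05. The NAD+ carrier Slc25a51 had group means from 4.59 to 4.67, the coenzyme A carrier Slc25a42 from 5.29 to 5.46, the peroxisomal carrier Slc25a17 from 5.14 to 5.29 and Slc25a32 from 5.31 to 5.51. The widest of these 4 ranges was 0.20, for Slc25a32, with group SDs of 0.09 to 0.20.

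Of the mitoferrins, Slc25a37, the isoform of red cell precursors, had group means from 3.09 to 3.18 with SDs of 0.22 to 0.52. The transferrin receptor Tfrc, which brings iron into cells, was the 1 call among 7 measured genes of heme and iron in rosiglitazone against obese. Tfrc averaged 5.81 with rosiglitazone against 7.04 in obese muscle, lower by 1.23 on the log2 scale (SE 0.30, adjusted p = 0.0301 from limma). There Slc25a28 had +0.34 and Slc25a37 +0.03. Tfrc averaged 7.72 with resveratrol and 6.79 in lean control muscle. Rosiglitazone was called lower than resveratrol (-1.91, adjusted p = 0.000581) but not lower than lean control (-0.98, adjusted p = 0.0734). Of 6 erythroid markers, 1 (Slc4a1) had a row, and for rosiglitazone against obese it stood at +0.55 (adjusted p = 0.307).

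The relatives of the uncoupling proteins with an Slc25a symbol, Slc25a14 and Slc25a27, had group means from 2.93 to 3.13 and from 3.32 to 3.45. Of 4 measured family members with other symbols, 1 was called. Ucp2, an uncoupling protein of many tissues, averaged 5.66 with rosiglitazone (SD 0.17), 4.51 with resveratrol (SD 0.20), 4.45 in obese (SD 0.39) and 4.41 in lean control muscle (SD 0.22, n = 5 each). It was called higher with rosiglitazone than in obese muscle (+1.21, adjusted p = 4.3e-05 from limma). So it was against resveratrol (+1.14, adjusted p = 0.000113) and lean control (+1.24, adjusted p = 2.87e-05). The part of fat or vessel cells in the Ucp2 values was not tested. Ucp1, Ucp3 and Mtch1 were not called in any comparison. Against lean control, Ucp3 stood at +0.82 for obese, +0.96 for rosiglitazone and +0.84 for resveratrol, each with an SE of 0.60. Its SD on the lean control arrays was 1.48, so the sizes of these differences are uncertain. Of 11 measured transporters of mitochondria outside the family, such as the porins Vdac1, Vdac2 and Vdac3 and the calcium uniporter Mcu, 0 were called in any comparison. Of the members of little known substrate, Slc25a46, a protein of mitochondrial shape at the outer membrane, had group means from 6.23 to 6.41, Slc25a34 from 4.25 to 4.63, with SDs of 0.28 to 0.45, and Slc25a45 from 2.49 to 2.69. Of the members at or below the array medians not yet described, Slc25a31 had group means from 1.25 to 1.48, Slc25a41 from 2.01 to 2.25, Slc25a47 from 2.10 to 2.33 and Slc25a43 from 1.37 to 1.66.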

How the data were processed

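The deposited values were log2 signals, made by the authors with RMA (background correction, normalization of the arrays to a common distribution, and a summary of the probes of a transcript cluster) from Rat Gene 2.1 ST arrays hybridised with 100 ng of total RNA per rat. The paper names the affy and oligo packages, and their versions are not given in the sources used here. Rows were named through GEO's platform annotation. Of 36685 rows, the 14824 with a single symbol were used, and for 234 genes with several rows the row with the highest mean was taken, which left 14557 genes. With limma 3.58.1 (R 4.3.3), a mean per group was fitted over all 20 arrays, variances were moderated across genes, and p values were two-sided and adjusted by Benjamini-Hochberg over all genes tested. Residual degrees of freedom were 16 and prior ones 6.35. Intervals are 95% intervals of that fit, unadjusted. Over the members they reached 0.17 to 0.47 to each side (median 0.29), a precision set by the number of arrays and the spread of each gene. No slide or scan batch is named in the labels. The script was tested on simulated data.

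The members and the gene lists were chosen with earlier results of these data known. The genes described in full were those called, those with the 3 highest and 3 lowest log2 fold changes in a comparison, and Slc25a4, Slc25a5, Slc25a11 and Slc25a12 (Slc25a3 and Slc25a13 had no row). Members with an unadjusted p under 0.05 or without overlap were added after their values were seen. Alternatives were trend and robust moderation, a replicate block, brighter genes only, the mean over the rows of a gene, every row tested by itself, fits of the compared groups alone, median centring, quantile normalization, array weights, and leaving out each array. Figures were drawn with matplotlib 3.10.9 and pandas 2.3.3 under Python 3.11.15.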

Additional observations from a re-analysis of the deposited data

Results flagged for a closer look

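In 9 of 140 sets of 5 arrays (35 members in 4 groups), the highest or lowest array stood apart from the rest by Dixon's criterion, which chance meets in about 1 of 20 sets. Rosiglitazone replicate 3 had Slc25a28 at 6.19 against 5.51 to 5.69 on the other arrays of its group, and rosiglitazone replicate 2 had Slc25a54 at 1.55 against 1.37 to 1.38. Resveratrol replicate 2 had Slc25a47 at 1.71 against 2.14 to 2.27. Obese replicate 5 had Slc25a47 at 2.70 against 2.17 to 2.29 and Slc25a52 at 1.49 against 1.12 to 1.23, and obese replicate 1 had Slc25a54 at 1.61 against 1.28 to 1.37. Lean control replicate 4 had Slc25a4 at 10.44 against 10.24 to 10.28, replicate 5 had Slc25a27 at 2.88 against 3.43 to 3.57, and replicate 1 had Slc25a33 at 5.08 against 5.42 to 5.55. The cause was not tested.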

How the results depend on the processing

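Of 791 alternative values of 42 single-member log2 fold changes, 785 kept their direction and their side of the threshold, 6 passed it where the reported value did not, and 0 turned direction. These counts take no account of size, and several sizes moved when single arrays were left out. For example, Slc25a39 for rosiglitazone against obese went from -0.19 to -0.01 without rosiglitazone replicate 2. The 114 alternative medians over the members moved by less than the spread between arrays, taken as the SD of the member median within a group. The reported medians, from -0.11 to 0.02, were themselves smaller than that spread. This count therefore cannot show that a median kept its size or direction. The count of members called for rosiglitazone against lean control, 0 as reported, was 2 with trend and robust moderation, 1 among the brighter genes, 1 with only the groups compared, and between 0 and 1 when each array was left out. For any difference among the groups it was 1 (Slc25a11, adjusted p = 0.0424) with trend and robust moderation and between 0 and 1 without single arrays, the 1 being Slc25a1 without rosiglitazone replicate 2 (adjusted p = 0.0486). For rosiglitazone against obese it was between 0 and 1 without single arrays, again Slc25a1 without that array. Which members were called thus differed between alternatives, and the cause was not tested. With the replicate block the count stayed 0 in every comparison. Arrays of the same number in different groups had deviations that correlated at -0.172 to 0.0669 (mean -0.0191), against a mean of 0.00478 for other pairs, so the numbers were not used as pairs. Depth cannot be judged from these values, and the 7 members at or below the array medians give no sure sizes.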
